A study of Mus musculus with 6 samples.

Results

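The 10 genes of the heat shock chaperone group (Hspa1a, Hspa1b, Hsph1, Hsp90aa1, Dnajb1, Hspb1, Hspa8, Hsp90ab1, Hspd1 and Hspe1) were followed in mouse liver by taking every probe set that the array's platform annotation assigns to them. A probe set is a group of short probes on the array that together report 1 transcript region. The rule found 22 probe sets for 9 of the 10 genes, among 45037 probe sets tested for 18193 genes in all. Hsp90ab1 was not analysed here. RNA of 6 liver samples from male mice had been measured on 3' expression arrays, 1 array per sample. The control group was 3 samples of the strain C57BL/KS (BKS), titled wild type (wt). The other group was 3 samples of the New Zealand Obese strain (NZO), which becomes obese and diabetic. Both groups were 18 weeks old, ate ordinary chow, had no treatment named in the labels and were killed with CO2. The design text calls the animals littermates, although the groups are separate inbred strains. The strains differ across the genome, so obesity, diabetes and genetic background cannot be told apart. Nothing in the labels says in so many words that the arrays are separate animals, and if they were not, p-values would measure only technical spread.

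Chaperones bind unfolded proteins and help them fold or be degraded. The inducible cytosolic forms are switched on together by heat shock factor 1 (Hsf1) when proteins unfold: Hspa1a and Hspa1b encode the stress-inducible Hsp70, Hsph1 the exchange factor Hsp110, Dnajb1 an Hsp40 partner that activates Hsp70, Hsp90aa1 the inducible Hsp90 and Hspb1 the small heat shock protein known as Hsp25 or Hsp27. Hspa8 encodes the constitutive Hsc70. Hspd1 and Hspe1 encode Hsp60 and Hsp10, which form the folding chamber of the mitochondrial matrix and are neighbouring genes transcribed in opposite directions.

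Because the group is defined by shared stress regulation, the regions before the transcription starts were searched for the heat shock element, the repeat of the unit GAA in alternating orientation that Hsf1 binds. RefSeq promoter windows (build GRCm38.p6) were at hand for 7 of the 10 genes, and the 250 bases before each start were used. Hspa8, Hsp90aa1 and Hsp90ab1 had no entry. The sequences of 3 inducible genes and of the stretch between Hspd1 and Hspe1 are shown, each 5′ to 3′ on the strand of its gene (Hspe1 for the shared stretch). Capitals mark every match of 2 adjacent units, GAANNTTC or TTCNNGAA, each of which reads the same on both strands.
Hspb1, chr5:135887669-135887918, strand +: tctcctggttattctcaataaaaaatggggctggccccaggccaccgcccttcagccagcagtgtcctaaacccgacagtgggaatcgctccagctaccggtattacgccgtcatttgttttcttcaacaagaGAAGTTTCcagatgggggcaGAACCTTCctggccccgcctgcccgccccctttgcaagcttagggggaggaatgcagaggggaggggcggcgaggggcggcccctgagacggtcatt
Hsph1, chr5:149636337-149636586, strand -: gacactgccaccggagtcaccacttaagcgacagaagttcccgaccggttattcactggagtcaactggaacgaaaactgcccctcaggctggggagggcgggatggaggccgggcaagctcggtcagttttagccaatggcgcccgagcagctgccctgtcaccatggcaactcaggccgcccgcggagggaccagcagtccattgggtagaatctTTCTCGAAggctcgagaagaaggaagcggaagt
Hspa1b, chr17:34959239-34959488, strand -: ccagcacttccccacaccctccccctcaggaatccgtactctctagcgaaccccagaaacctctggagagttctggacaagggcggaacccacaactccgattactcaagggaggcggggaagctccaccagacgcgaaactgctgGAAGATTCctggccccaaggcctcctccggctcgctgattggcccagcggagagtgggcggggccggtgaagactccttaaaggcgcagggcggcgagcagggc
Hspd1 to Hspe1, chr1:55087933-55088147, strand +: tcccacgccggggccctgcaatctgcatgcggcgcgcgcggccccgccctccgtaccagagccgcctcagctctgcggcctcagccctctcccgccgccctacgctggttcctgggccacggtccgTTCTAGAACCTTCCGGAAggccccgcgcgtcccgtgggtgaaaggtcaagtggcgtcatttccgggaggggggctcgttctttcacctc
The Hspb1 window holds 2 matches of GAANNTTC, the Hspa1b window 1 and the Hsph1 window 1 of TTCNNGAA. These genes were shown because they hold a match. Neither window of Dnajb1, also inducible, holds any, nor does the window of the other Hspd1 start. Of all 32851 windows of this length, 6.69% hold GAANNTTC and 7.17% hold TTCNNGAA. The stretch between the mitochondrial genes holds a run of 3 overlapping matches over 18 bases, whose end lies 72 bases before the start of Hspe1. It was the only one of these regions with the longer element of 3 units, TTCNNGAANNTTC or on the other strand GAANNTTCNNGAA, which 0.466% of all windows hold and which contains the shorter matches. The windows of Hspa1a and Hspa1b are identical at 247 of 250 positions. Among the measured genes, 70 had the 3-unit element in a window. None of them differed between the strains in limma at an adjusted p below 0.05, against 0.54% of the 14452 measured genes with a window, and their median log2 difference was -0.02 against -0.04. With only 70 genes, so low a share cannot be told from 0. At the same threshold 0.94% of the 956 measured genes with GAANNTTC differed, and 0.28% of the 1082 with TTCNNGAA. A match of letters is a description and does not show binding.

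The array values are log2 RMA values (background-corrected, quantile-normalized and summarised per probe set), with array medians between 5.08 and 5.22. Pairs of arrays of the same strain correlated at 0.975 to 0.993, and pairs of different strain at 0.960 to 0.981. The 8 hepatocyte markers lay between 12.06 and 14.97 on all arrays, near the top of the scale. NZO replicate 1 and BKS replicate 2 stood apart in different ways. The 1821 genes with a mean of at least 10 were low on NZO replicate 1. Their values there deviated by -0.82 on average from each gene's 6-array mean. Mean deviations of the remaining 5 arrays lay between -0.01 and 0.24. The median log2 difference of those bright genes, NZO minus BKS, was -0.32, and 83.4% of them lay below 0. After cyclic loess normalization it was 0.00. The median of all 18193 genes was -0.03. Of the 22 chaperone probe sets 10 were that bright, as were 42 of the 117 network genes described after them. Values after cyclic loess are given for those 10 and for most list medians, while single network genes are mostly given as deposited. The hybridization controls, spiked-in and free of liver RNA, averaged 9.29 and 8.17 on the arrays titled number 1 in each strain and 10.2 to 11.5 on the other 4. The excess of 3' over 5' beta-actin signal, which grows when transcripts are shortened, was 1.72 to 2.33 in BKS and 1.29 to 1.39 in NZO, so it moved with strain, as did that of Gapdh (0.45 to 0.98 in BKS, -0.04 to 0.14 in NZO). BKS replicate 2 had the highest excess for both, at 2.33 and 0.98. Its 18S ribosomal RNA probe sets averaged 10.46, against 7.91 on BKS replicate 3 and 4.51 to 5.52 on the other 4 arrays. The part of these in the results was not tested.

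Across the 22 chaperone probe sets, none passed the test between strains (limma, Benjamini-Hochberg adjusted p below 0.05 over all 45037 probe sets). Over the array as a whole 191 did, or 0.424%, with 0.191% higher and 0.233% lower in NZO. At an unadjusted p below 0.05 there were 3 of 22, all lower in NZO, against 10.1% of all probe sets. The 17 probe sets with a negative difference had values down to -2.12, and the 5 with a positive difference reached at most 0.39. The median of the 22 was -0.42, against 0.00 over all probe sets and -0.31 over the 2810 probe sets with a mean of at least 10. In 3 probe sets all NZO arrays lay below all BKS arrays, which 8.49% of all probe sets did, and in none did they lie above, which 6.83% did.

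**Figure D1:**
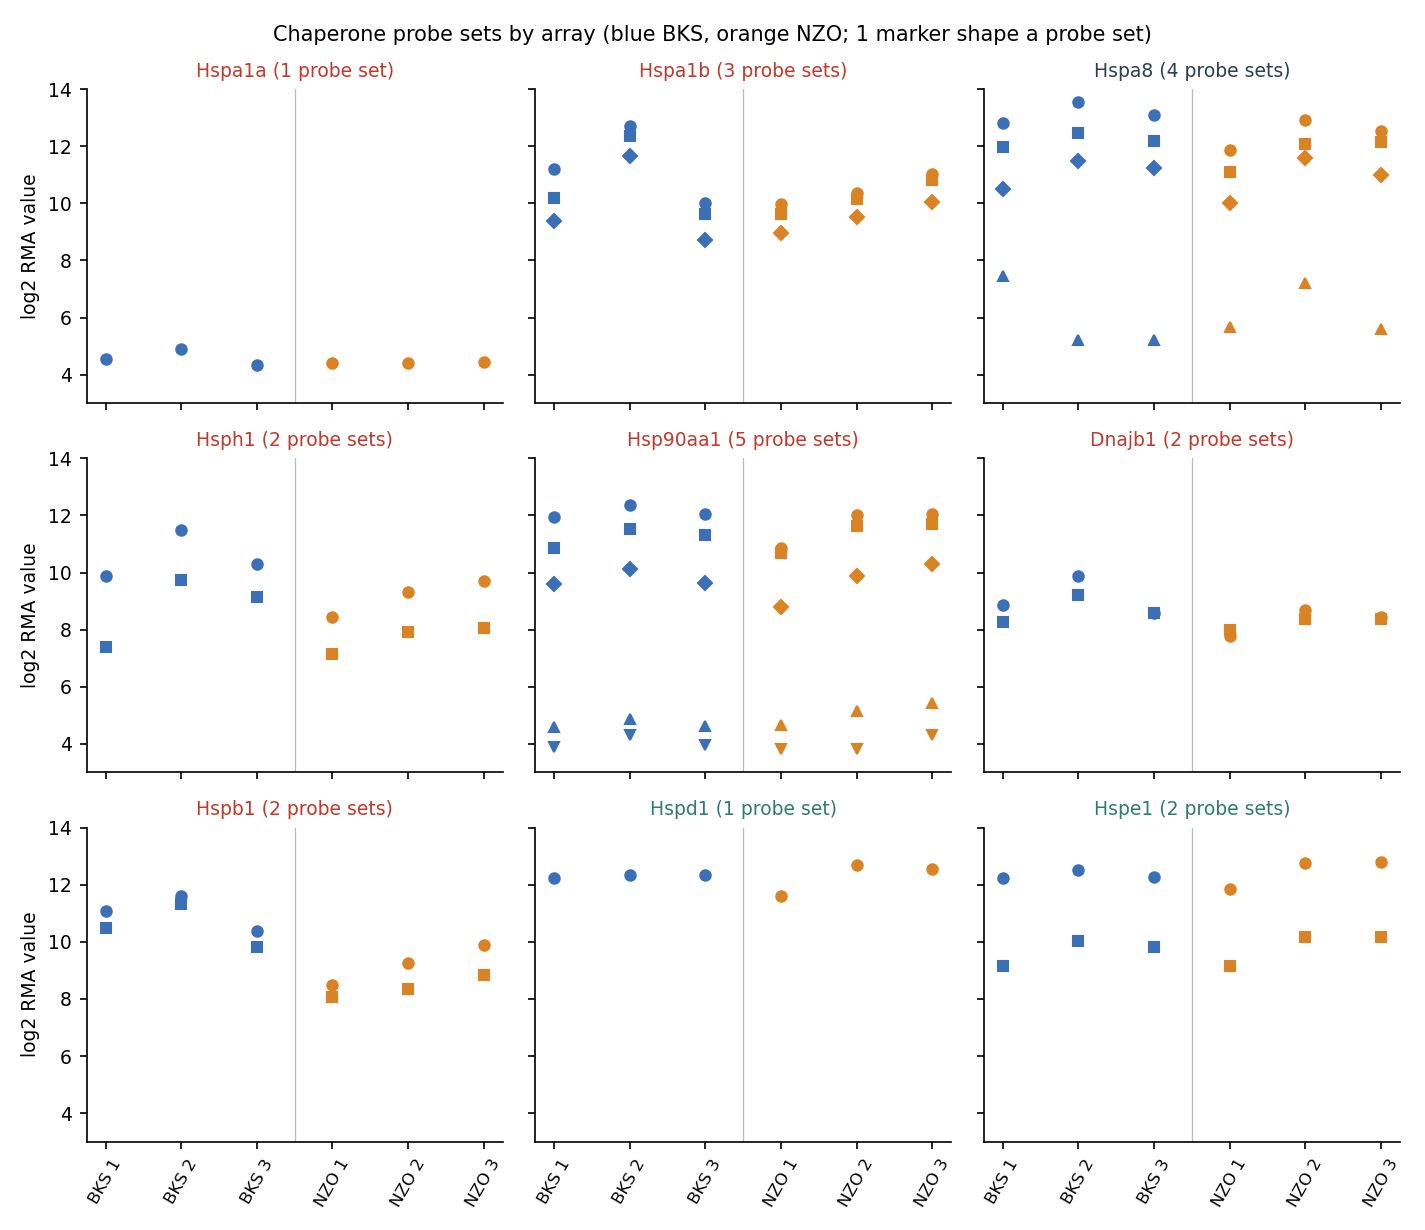
Log2 RMA values (y axis) of every chaperone probe set on the 3 BKS arrays (blue) and the 3 NZO arrays (orange), 1 panel per gene and 1 marker shape per probe set. Both Hspb1 probe sets sit higher on all BKS arrays than on all NZO arrays, and the Hspa1b probe sets peak on BKS replicate 2.

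Hspb1, the small heat shock protein that holds unfolding proteins and stabilises actin, showed the largest difference of the group. Its brighter probe set stood at 11.09, 11.59 and 10.37 in BKS replicates 1, 2 and 3 and at 8.48, 9.26 and 9.88 in NZO replicates 1, 2 and 3. Every BKS array was above every NZO array, with a gap of 0.49 between the closest. The means were 11.02 ± 0.61 and 9.21 ± 0.70 (SD, n = 3 each), a log2 difference of -1.81 (95% interval -2.81 to -0.80, adjusted p = 0.198), or 3.5-fold. The second Hspb1 probe set, which may also bind similar sequences, read 10.48, 11.32 and 9.81 in BKS and 8.07, 8.34 and 8.84 in NZO. Again the strains did not overlap, and the gap was 0.96. Its log2 difference was -2.12 (95% interval -3.05 to -1.19, adjusted p = 0.108), or 4.34-fold. Neither probe set passed in this fit. The second passed with the number 1 arrays as a block (adjusted p = 0.0323, where 2.04% of all probe sets were lower), among probe sets with a mean of at least 6 (adjusted p = 0.0294, where 0.819% were lower) and with a trended, robust variance (adjusted p = 0.0383, where 0.429% were lower). Over its 13 alternatives the adjusted p ran from 0.0294 to 0.310. The difference had the same sign among the number 1 arrays and among the other 4. It was -2.41 and -1.97 for the second probe set and -2.61 and -1.41 for the brighter one. After cyclic loess normalization the 2 probe sets stood at -1.85 and -1.52.

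Hsph1, which exchanges nucleotide on Hsp70 and keeps aggregates soluble, came next in size. Its brighter probe set read 9.89, 11.49 and 10.29 in BKS and 8.44, 9.33 and 9.69 in NZO. Both strains kept apart, but the gap of 0.20 was small beside the ranges of 1.60 within BKS and 1.25 within NZO. Its log2 difference was -1.40 (95% interval -2.53 to -0.28, adjusted p = 0.372). The dimmer Hsph1 probe set was at 7.38, 9.75 and 9.15 in BKS and 7.15, 7.93 and 8.06 in NZO. Here BKS replicate 1 lay among the NZO arrays. Its log2 difference was -1.05 (adjusted p = 0.643) and moved to -1.46 (adjusted p = 0.0247, where 1.26% of all probe sets were lower) when both number 1 arrays were left out. It was -0.23 between the number 1 arrays alone. Without BKS replicate 2 the dimmer probe set stood at -0.55 and the brighter one at -0.94.

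Hspa1b, the stress-inducible Hsp70 itself, varied more within BKS than between the strains. On its brightest probe set BKS replicate 2 read 12.69, against 11.20 and 10.02 on BKS replicates 1 and 3 and 9.97, 10.35 and 11.01 in NZO. The range within BKS was thus 2.68, against 1.04 within NZO. Its log2 difference was -0.86 (95% interval -2.38 to 0.67, adjusted p = 0.749) and was -0.16 without BKS replicate 2. The other Hspa1b probe sets stood at -0.53 and -0.41, and without BKS replicate 2 at 0.29 and 0.46, so their sign rests on that array. After cyclic loess normalization the brightest stood at -0.54 and the others at -0.23 and -0.14. The near-identity of Hspa1a and Hspa1b means that probe sets assigned to Hspa1b may also bind Hspa1a transcripts. The 1 probe set assigned to Hspa1a lay at 4.35 to 4.91 in BKS and 4.40 to 4.45 in NZO, below the array medians, too dim to compare levels.

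Dnajb1, the Hsp40 that hands substrates to Hsp70, peaked on BKS replicate 2, as did 11 of the 15 inducible probe sets, against 17.2% of all. It read 8.86, 9.87 and 8.58 in BKS and 7.78, 8.68 and 8.45 in NZO on its brighter probe set. Highest was BKS replicate 2, and the strains overlapped at BKS replicate 3. The log2 difference was -0.80 (95% interval -1.70 to 0.10, adjusted p = 0.559), and the second probe set gave -0.45 (adjusted p = 0.655). Without BKS replicate 2 they stood at -0.42 and -0.18. Hsp90aa1 was at 11.93, 12.35 and 12.06 in BKS and 10.87, 12.00 and 12.06 in NZO on the brightest of its 5 probe sets. Only NZO replicate 1 stood clearly below the rest. The log2 difference of that probe set was -0.47 (adjusted p = 0.724). It was -0.08 without NZO replicate 1 and -0.13 after cyclic loess. For 2 further bright probe sets it was 0.11 and -0.14, so they disagreed in sign. After cyclic loess those 2 stood at 0.44 and 0.14. The remaining 2 averaged below the array medians.

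**Figure D2:**
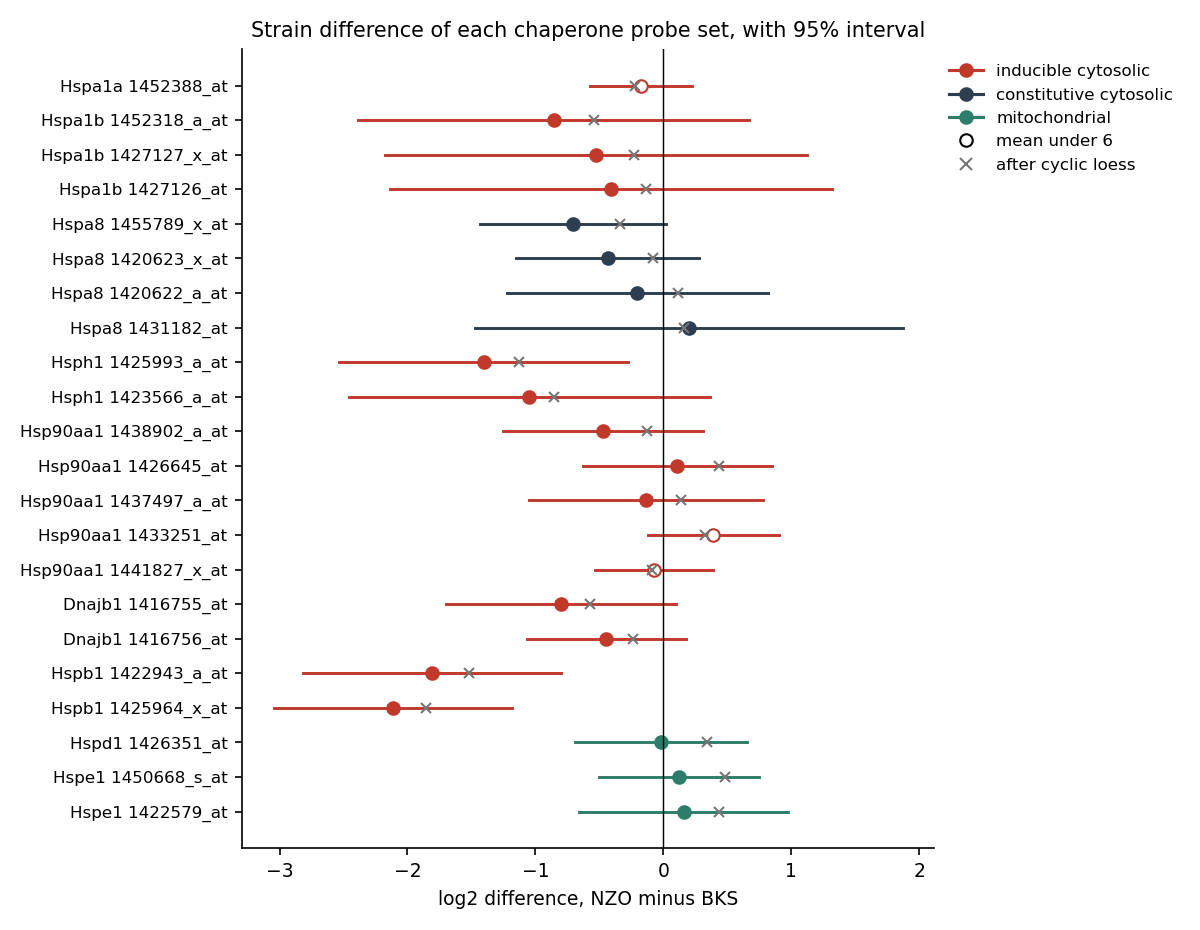
Log2 difference NZO minus BKS (x axis) of the 22 chaperone probe sets, with the 95% interval of the limma fit as a bar, coloured by role. Open circles have a mean under 6, and crosses give the difference after cyclic loess normalization. The intervals of both Hspb1 probe sets and of the brighter Hsph1 probe set lie below 0, and those of Hspd1 and Hspe1 span 0.

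Hspa8, the constitutive Hsc70 that also uncoats clathrin vesicles, had no probe set past the test. The brightest read 12.80, 13.55 and 13.08 in BKS and 11.86, 12.91 and 12.53 in NZO. Only NZO replicate 2 reached into the BKS range, and the log2 difference was -0.71 (95% interval -1.44 to 0.02, adjusted p = 0.515). It was -0.34 after cyclic loess normalization and -0.42 without NZO replicate 1. The next probe sets gave -0.43 and -0.20 (-0.08 and 0.11 after cyclic loess). The dimmest split across both strains, at 7.46 on BKS replicate 1 and 7.21 on NZO replicate 2 and at 5.21 to 5.67 on the other 4 arrays.

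The mitochondrial chaperonin genes had differences near 0 as deposited, with intervals on both sides of it. Hspd1 was at 12.25, 12.32 and 12.33 in BKS, a range of 0.08, and at 11.61, 12.68 and 12.55 in NZO. NZO replicate 1 lay below and the other NZO arrays above all BKS arrays. The log2 difference was -0.02 (95% interval -0.69 to 0.65, adjusted p = 0.992). The brighter Hspe1 probe set, which is shared between sequences, showed the same split, with 12.24, 12.52 and 12.26 in BKS and 11.86, 12.75 and 12.78 in NZO. Its log2 difference was 0.12 (95% interval -0.50 to 0.75, adjusted p = 0.929), and the second probe set gave 0.16 (adjusted p = 0.929). The intervals do not show that levels were equal. The median of the bright genes was -0.32. After cyclic loess normalization Hspd1 stood at 0.34 (adjusted p = 0.287) and Hspe1 at 0.49 and 0.43.

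The inducible and the other members were then set side by side, with 1 probe set per gene, the brightest. The 6 inducible genes all had negative differences, with a median of -0.83 (-0.56 after cyclic loess). Below 0 were 55.1% of all genes and 83.4% of those with a mean of at least 10. Hspa1a among the 6 was too dim to compare levels, and the bright probe sets of Hsp90aa1 disagreed in sign. The mean deviation of the inducible genes from their own 6-array means was 0.26, 1.16 and -0.04 on BKS replicates 1, 2 and 3 and -0.995, -0.32 and -0.06 on NZO replicates 1, 2 and 3. The strains did not overlap, but BKS replicate 3 and NZO replicate 3 nearly touched. The 3 constitutive and mitochondrial genes deviated by -0.07, 0.30 and 0.06 in BKS and by -0.72, 0.29 and 0.13 in NZO. The strains overlapped, but the 3 genes were not alike. Hspa8 deviated by 0.02, 0.76 and 0.29 in BKS and by -0.93, 0.12 and -0.26 in NZO. The mitochondrial pair deviated by -0.11, 0.07 and -0.05 in BKS and by -0.61, 0.37 and 0.32 in NZO. The log2 difference of Hspa8, -0.71, lay near the inducible median, whereas the median of the mitochondrial pair was 0.05. Inducible minus other removes only what an array does to both groups alike. It averaged 0.36 ± 0.48 in BKS and -0.36 ± 0.22 in NZO (SD, n = 3 each), a strain difference of -0.72. It lay between -0.47 and -0.95 over its 10 alternatives, the lower size being without BKS replicate 2. This score over chosen genes carries no test. NZO replicate 1 deviated by -0.82 for the bright genes and by -0.23 over all genes. The other members averaged 12.29 to 12.79 and the inducible ones 4.51 to 11.88, so part of such a shift may remain. In the member probe sets the lowest array was NZO replicate 1 in 17 of 22, against 29.1% of all probe sets and 89.9% of those with a mean of at least 10. The highest was BKS replicate 2 in 13 of 22, against 17.2% and 29.3%. That array is also the one with the highest 18S signal and 3' excess.

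**Figure D3:**
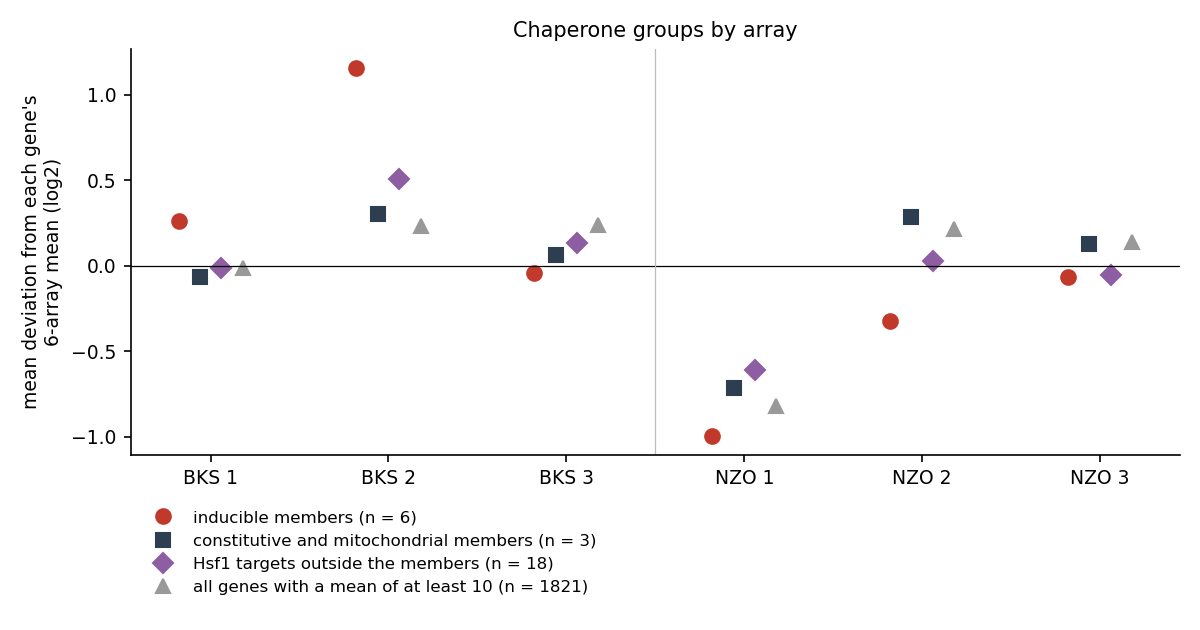
Mean deviation of gene groups from each gene's own 6-array mean (y axis, log2) on each array, with 1 probe set per gene. The inducible chaperones reach 1.16 on BKS replicate 2, where the 1821 bright genes stand at 0.23, and all groups are low on NZO replicate 1.

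Genes outside the members with the most similar profile were sought among 9614 genes with a mean of at least 6, by the root mean square distance over the 6 arrays from the mean profile of the inducible genes. The nearest were Rbm14 (distance 0.107 on the log2 scale), the transcription factor gene Cebpd (0.143), Cntd1 (0.164), Tmx1 (0.182) and Zfp622 (0.192). None of these 5 passed the test (log2 differences -0.996 to -0.83, adjusted p = 0.327 to 0.462), although Zfp622 did with the number 1 arrays as a block (adjusted p = 0.0485). The probe sets used for Rbm14, Cntd1 and Zfp622 may also bind similar sequences. That of Cntd1 averaged 10.05, against 5.19 and 5.29 for its others. Further probe sets of Rbm14 and Cntd1 ranged from -0.86 to 0.03, and those of Zfp622 from -0.74 to -0.04. The second Cebpd probe set, dim at a mean of 4.14, gave 0.10, and that of Tmx1 gave -0.37. The likeness was thus found for the brightest probe set of each gene and not for all.

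The wider chaperone network was counted over 8 lists of 117 measured genes, again by the brightest probe set. In NZO 1 gene fell, 0 rose and 116 did not pass. Of all genes 0.566% passed, 0.324% lower and 0.242% higher. The median was -0.32, the same as that of the bright genes of the array. Below 0 were 98 of 117 (83.8%), against 83.4% of the bright genes and 55.1% of all genes. After cyclic loess normalization the median was -0.11 and 78 (66.7%) were below 0, against 49.6% of the bright genes and 50.7% of all genes. The gene that fell was Hspb6, a small heat shock protein known best from muscle. It read 8.00, 8.19 and 7.94 in BKS and 6.45, 6.78 and 6.77 in NZO, so all BKS arrays stood over 1 unit above all NZO arrays. Its log2 difference was -1.38 (95% interval -1.74 to -1.02, adjusted p = 0.0211). Leaving out any single array other than NZO replicate 1 left it short of the threshold, with adjusted p = 0.0533, 0.155 and 0.108 for the BKS arrays in turn, 0.0643 for NZO replicate 2 and 0.0998 for NZO replicate 3. Among the other 6 genes listed with the small heat shock proteins, Hspb11 was at -1.08 (adjusted p = 0.271), and the rest lay within -0.07 to 0.22. The second Hspb11 probe set, dim at a mean of 3.55, gave -0.11.

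Among 18 other Hsf1 targets none passed, 17 were below 0 and the median was -0.44 (-0.24 after cyclic loess). Gadd45g, a stress and growth arrest gene, was at -0.94, the Hsp40 gene Dnaja1 at -0.59 and the Hsp90 activator Ahsa2 at -0.50 (adjusted p = 0.515 to 0.588). The 34 co-chaperones of Hsp70 and Hsp90 had a median of -0.26 (-0.03 after cyclic loess) and none passed. Fkbp5, an Hsp90 partner induced by glucocorticoids, was at 0.89 (adjusted p = 0.330). Dnajc7 was at -0.66 and Dnajc5 at -0.55, but further Dnajc5 probe sets ran from -0.09 to 0.62. Of the 6 genes of heat shock factors and their control none passed. Hsf2 lay at 4.27 to 4.99 on all arrays, near the bottom of the scale, and Hsf1 was not analysed here. Hsbp1l1 was at -0.88 (adjusted p = 0.0883) from levels of 5.03 and 4.16, which are as dim.

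The 14 genes of the cytosolic chaperonin and prefoldin, which fold actin and tubulin, had a median of -0.58 and 13 below 0. None passed, and the median was -0.27 after cyclic loess. Tcp1 was at -0.84 (adjusted p = 0.391), Vbp1 at -0.64 and Cct2 at -0.61. The 16 chaperones of the endoplasmic reticulum had a median of -0.55 (-0.19 after cyclic loess) and none passed. Creld2 stood at -1.59 (adjusted p = 0.449), Sdf2l1 at -1.09, Dnajc3 at -0.81 and Hspa5, the Hsp70 of this compartment, at -0.66. Further probe sets ran from -0.59 to 0.11 for Dnajc3 and stood at -0.85 and 0.28 for Hspa5. The 17 mitochondrial chaperones and proteases had a median of -0.19 (0.10 after cyclic loess) and none passed. The matrix Hsp70 Hspa9 was at -0.18 (adjusted p = 0.933), and Hscb, a co-chaperone of iron-sulfur cluster assembly, at 0.77 (adjusted p = 0.151). Further Hspa9 probe sets ran from -0.40 to 0.97. The 5 other genes of the Hsp70 and Hsp110 family had a median of -0.10, and none passed. With the number 1 arrays as a block, where 4.2% of all genes passed, Fkbp5, Hscb, Hsbp1l1, Sdf2l1 and Creld2 passed besides Hspb6 (adjusted p = 0.0259 to 0.0412 for the 5).

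**Figure D4:**
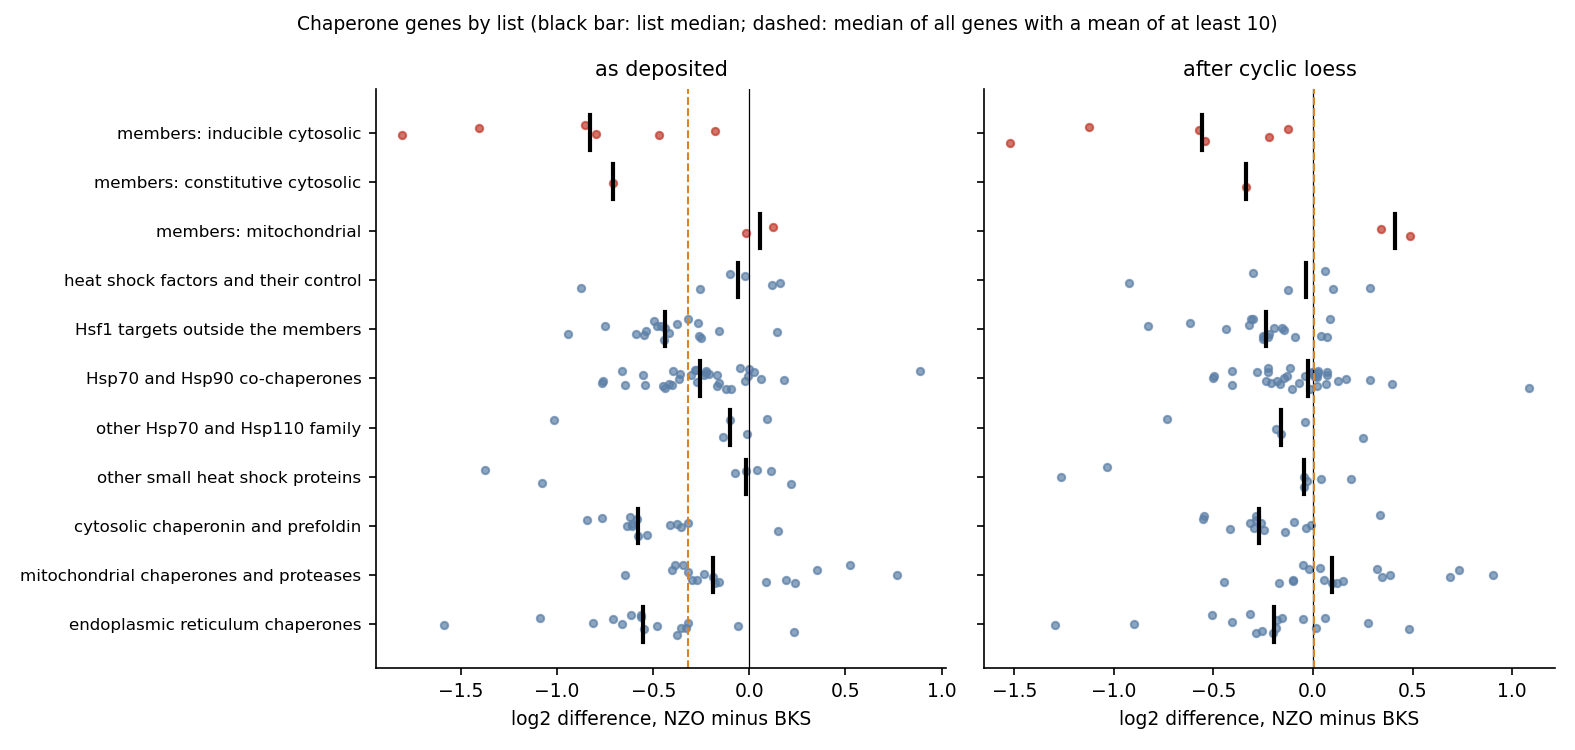
Log2 difference NZO minus BKS (x axis) of each chaperone gene by list, from the values as deposited (left) and after cyclic loess normalization (right). Black bars are list medians, and the dashed line is the median of all genes with a mean of at least 10, at -0.32 on the left and 0.00 on the right. The median of the inducible members is the lowest of the lists on both sides. That of the mitochondrial members lies right of the dashed line, as does that of the mitochondrial chaperones and proteases. On the left several further list medians lie right of it too.

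Hspa13, an Hsp70 relative of the endoplasmic reticulum and microsomes, had probe sets that disagreed in direction, of which some passed. Its brightest probe set gave -1.02 (adjusted p = 0.470). Its second brightest read 8.30, 8.25 and 8.13 in BKS and 10.59, 10.47 and 10.43 in NZO. All NZO arrays were above all BKS arrays, with spreads of at most 0.09 (SD, n = 3), and this probe set rose by 2.27 (95% interval 1.98 to 2.57, adjusted p = 0.00196). Another rose by 2.36 (adjusted p = 0.00345), from 5.42 to 7.77, and the last was at 0.25 (adjusted p = 0.791). The 2 that rose passed under every alternative that kept them. They were singled out after their values were seen. Over all 263 probe sets of the 117 network genes, these 2 and that of Hspb6 were the 3 that passed, or 1.14%, against 0.424% of all probe sets. Which transcripts or strain sequence differences the Hspa13 probe sets detect was not tested.

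Markers of other cell types were read beside these values. None of 52 marker genes in 10 lists passed, and list medians ran from -0.31 for hepatocytes to 0.55 for sinusoidal endothelium. Pecam1 passed with the number 1 arrays as a block (adjusted p = 0.0455). Without those arrays, where 3.36% of all genes passed, 7 of the 52 did, all higher in NZO. They were Pecam1 and Fcgr2b of the endothelium, Vsig4 and Lyz2 of macrophages, Dcn of stellate cells, Apob of hepatocytes and Fabp4 of adipocytes. Their log2 differences were 0.83 to 1.96 (adjusted p = 0.00734 to 0.0416). In that fit the list medians were 0.86 for endothelium, 0.51 for macrophages and 0.25 for adipocytes. They were 0.20 for stellate cells, with Col3a1 at -0.66 and Reln at -0.42, and -0.002 for hepatocytes, with Apoa1 at -0.19 and Ttr at -0.11. With all 6 arrays and no block, all 6 endothelial, 5 T and NK cell and 3 erythroid markers were above 0. Pecam1 was at 0.71 (adjusted p = 0.140). Some of these were dim: Pecam1, Cd3g and Hba-a1 averaged 4.69, 4.27 and 4.35, below the array medians. Cd8a read 9.55 on NZO replicate 1 and 6.41 to 6.70 on the other arrays. The summed log2 level of the endothelial list was 40.1 to 42.2 in BKS and 42.7 to 46.5 in NZO. That of the 8 Kupffer cell and macrophage markers was 54.2 to 61.0 and 55.7 to 62.6. Their part in the chaperone values was not tested, and in whole liver fewer cells of a type and less RNA per cell cannot be told apart.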

How the data were processed

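Per the submitters' processing notes, the authors made the deposited log2 values with RMA in Affymetrix Expression Console; their versions are not given in the sources used here. Whether the 6 arrays were normalized alone is not known. Of 45101 probe sets, 64 controls were left out. The platform annotation gave 34945 probe sets 1 gene symbol, 932 several (not named) and did not list 9160; 34741 were matched to GRCm38.p6 by gene ID. Arrays were grouped by strain label and numbered in accession order. Every probe set was fitted in R 4.3.3 by limma 3.58.1 (functions lmFit, eBayes; 3 against 3 arrays, no covariate, two-sided), with Benjamini-Hochberg adjustment over all 45037. Differences are NZO minus BKS. Gene counts use the probe set with the highest mean. The number of arrays limits the precision. The fit was tested on simulated data. Text names every member probe set; per list every gene past the test and up to 3 with the smallest p; Hsf2, Hspa5 and Hspa9; and 5 genes of nearest profile. Members and lists were chosen with earlier results of these data known. Alternatives changed the arrays included, a block for the number 1 arrays, normalization, dim filter, probe set choice, variance model and array weights. Plots used Python 3.11.15 and matplotlib 3.10.9.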

Additional observations from a re-analysis of the deposited data

How the results depend on the processing

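No paired analysis was possible because the strains share only 1 number in their titles. Of 292 alternative values of member probe sets, 257 kept direction and side of the threshold, 31 changed sign and 4 newly passed; the cause was not tested. Signs changed for Hspd1 (0.294 without both number 1 arrays, 0.280 with repeated quantile normalization, 0.341 with cyclic loess, 0.149 with array weights), Hsp90aa1 (0.208, 0.0850, 0.136 and 0.124 in that order) and Hspa8 (0.0751 and 0.114 with the 2 normalizations). Hspa9 gave 0.209, 0.125, 0.153 and 0.0319. Leaving out 1 array at a time, the log2 difference ran from -0.22 to 0.32 for Hspd1, from -0.0920 to 0.498 and -0.0340 to 0.425 for Hspe1, from -0.0788 to 0.433, -0.457 to 0.298 and -0.239 to 0.0509 for Hsp90aa1, from -1.01 to 0.46 and -1.07 to 0.29 for Hspa1b, from -0.565 to 0.223 and -0.32 to 0.95 for Hspa8 and from -0.45 to 0.31 for Hspa9. Inducible minus other members ran from -0.95 to -0.47.

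Over all probe sets, higher and lower counts were 417 and 919 with the number 1 arrays as a block, 623 and 569 without them, 320 and 284 with repeated quantile normalization, 320 and 264 with cyclic loess, 180 and 193 with trended robust variance, 319 and 510 with array weights, and 14 to 165 and 12 to 107 leaving out 1 array, against 86 and 105. Members called lower were 1 with the block, without the number 1 arrays, with the dim filter and with trended robust variance, and 0 otherwise; leaving out 1 array gave 0 to 0. Network genes called higher were 2 with the block and without the number 1 arrays, and 1 with either normalization and with array weights. Those called lower were 4 with the block and without the number 1 arrays, 2 with cyclic loess, trended robust variance and array weights, and 0 to 1 leaving out 1 array. Signal limits Hspa1a, 2 Hsp90aa1 probe sets and Hsf2, which lay near the bottom of the scale.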

Other observations

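Clock and temperature genes and immediate early genes, which respond within minutes to stimuli, were read as values. Of 15 measured temperature and clock genes none passed, with a median of -0.03. Levels varied between arrays of the same strain. The list deviated on average by -0.51 on BKS replicate 1, against 0.20 and 0.32 on BKS replicates 2 and 3. On NZO replicate 1 it deviated by -0.43, against 0.43 and -6.6e-05 on NZO replicates 2 and 3. Dbp ran from 5.63 on BKS replicate 1 to 11.10 on BKS replicate 3, and Arntl from 8.31 to 5.93. Per1 stayed within 6.95 to 7.43 on all arrays. Whether the arrays differed in clock phase was not tested. Noct, a deadenylase gene of the clock output, was at 6.99, 7.40 and 7.76 in BKS and 8.77, 9.16 and 8.80 in NZO. Its strains did not overlap (log2 difference 1.53, adjusted p = 0.0561, and 0.0068 to 0.308 over the alternatives). Cirbp, which encodes a cold-inducible RNA-binding protein, was at -0.04 (adjusted p = 0.987).

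Of 14 immediate early genes none passed, with a median of -0.43 and 10 below 0. Egr1 was at 10.60, 10.78 and 9.63 in BKS and 6.43, 8.00 and 6.68 in NZO, a log2 difference of -3.30 (adjusted p = 0.0534, and 0.0042 to 0.297 over the alternatives). Jun was at -0.83 (adjusted p = 0.385) and Myc at -0.73 (adjusted p = 0.398). On BKS replicate 2, where the inducible chaperones stood at 1.16, the immediate early genes deviated by 0.47 from their means, against 0.19 and 0.18 on the other BKS arrays.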
